A study of Mus musculus with 9 samples.

Results

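The 10 genes described here serve osteoclast differentiation and function. They are Tnfrsf11a, Oscar, Nfatc1, Dcstamp, Ocstamp, Itgb3, Atp6v0d2, Acp5, Ctsk and Mmp9, taken by gene symbol from a table of 54532 genes. Of the 10, 9 had a read in at least 1 library and 8 passed the expression filter, which asked for at least 1 FPKM (reads per kilobase of a gene, scaled to the library) in at least 3 of 9 libraries. Ocstamp and Oscar did not pass, and 10858 genes in all did.

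Osteoclasts are the multinucleated cells that resorb bone, and they arise from the monocyte and macrophage lineage. Macrophage colony-stimulating factor (M-CSF) keeps their precursors alive, and RANK ligand, acting through the receptor RANK and TRAF6, turns on NF-kB, AP-1 and finally the transcription factor NFATc1. NFATc1 works with PU.1, MITF and AP-1 on the genes for fusion, adhesion, acid secretion and matrix breakdown. At an implant the same lineage includes the macrophages that settle on the surface and the osteoclasts that can resorb the bone around it.

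RNA came from primary bone marrow-derived macrophages of wild-type mice after 48 h of culture on a material. The 3 materials were the metallic glass Zr58Cu25Al14Ta3 (Ta3), which contains tantalum, the metallic glass Zr61Cu25Al14 (Ta0), which does not, and cp titanium (cpTi), each with 3 libraries. A metallic glass is an alloy whose atoms form no crystal lattice. The labels give xenograft as the tissue, name no cytokine added to the cells and describe no surface besides these, so cpTi is the sole reference and a lower level on a glass is equally a higher level on cpTi. Nothing in the labels says whether the libraries of a material came from separate animals or cultures, so p-values measure only how these libraries vary, and that variation may be technical. The column names of the table give 1 element for each glass, which was matched to the alloy that contains or lacks tantalum, and a reversed match would swap every Ta3 and Ta0 value.

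Whole reads rebuilt from the FPKM came to between 15517877 and 18689963 per library. A pair of libraries stood apart, Ta3 replicate 3 and Ta0 replicate 1, with 13466 and 15678 genes above 0 FPKM, against 18156 to 20635 in the other 7. Ribosomal protein genes took 15.6% and 17.1% of the reads in that pair, and between 1.95% and 9.50% elsewhere. Mitochondrial genes took 1.00% ± 0.122 of the reads on Ta3, 1.35% ± 0.131 on Ta0 and 1.84% ± 0.436 on cpTi (SD, n = 3 each), and the exact 2-sided permutation p of Ta3 against each of the others was 0.1, the smallest that 3 against 3 allows. The library scale in the deposited FPKM also differed, and the FPKM summed to between 305491 and 1251570 per library. Macrophage markers (8 of 8 tested) were present in every library, and their summed level ran from 10930 to 40070 FPKM on Ta3, from 23320 to 40280 FPKM on Ta0 and from 16790 to 29370 FPKM on cpTi. Taken gene by gene, 7 of the 8 had a log2 fold change below 0 for Ta3 over cpTi (median -0.36), 5 for Ta0 over cpTi (median -0.25) and 6 for both glasses over cpTi (median -0.29, beside 0.01 over all tested genes), and none passed the adjusted threshold. In such bulk samples a smaller number of cells of a type and less RNA per cell cannot be told apart.

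Ctsk, Oscar and Acp5 are textbook targets of NFATc1, and the 250 bases upstream of their RefSeq starts (build GRCm38.p6) are shown because NFATc1 and PU.1 were read in the same libraries. Capitals mark the NFAT core GGAAA and the PU.1 core GAGGAA or their reverse complements. Both strands were searched, together with the AP-1 motif TGANTCA and the MITF E-box CACGTG, and the cores searched do not overlap one another in these windows. For Acp5 the first window lies upstream of the gene's outer start and the second within the gene, upstream of an inner start.
Ctsk, chr3:95498960-95499209, plus strand: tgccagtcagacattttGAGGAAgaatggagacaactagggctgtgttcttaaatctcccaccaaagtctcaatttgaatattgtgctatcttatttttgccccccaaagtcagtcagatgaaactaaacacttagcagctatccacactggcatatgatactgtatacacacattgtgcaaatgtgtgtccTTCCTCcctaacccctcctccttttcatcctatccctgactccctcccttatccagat
Oscar, chr7:3616158-3616407, minus strand: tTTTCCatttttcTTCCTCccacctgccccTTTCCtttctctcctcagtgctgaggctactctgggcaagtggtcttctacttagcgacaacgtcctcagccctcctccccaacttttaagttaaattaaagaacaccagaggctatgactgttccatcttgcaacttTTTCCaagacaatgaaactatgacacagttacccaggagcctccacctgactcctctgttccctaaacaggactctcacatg
Acp5, chr9:22135747-22135996, minus strand: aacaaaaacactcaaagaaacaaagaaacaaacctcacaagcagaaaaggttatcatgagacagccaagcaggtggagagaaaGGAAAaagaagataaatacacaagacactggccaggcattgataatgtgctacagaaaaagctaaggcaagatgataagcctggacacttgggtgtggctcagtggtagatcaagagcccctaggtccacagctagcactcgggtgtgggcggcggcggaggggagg
Acp5, chr9:22131866-22132115, minus strand: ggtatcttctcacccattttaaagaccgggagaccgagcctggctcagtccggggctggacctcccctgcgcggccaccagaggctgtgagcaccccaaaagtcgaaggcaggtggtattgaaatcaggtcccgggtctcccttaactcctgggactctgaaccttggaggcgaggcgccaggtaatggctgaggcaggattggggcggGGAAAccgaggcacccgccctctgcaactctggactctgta

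The Ctsk window held 2 PU.1 cores and 0 NFAT cores. The Oscar window held 3 NFAT cores and 1 PU.1 core, and each of the 2 Acp5 windows shown held 1 NFAT core. Another Acp5 window, with 2 NFAT cores, and the Tnfrsf11a window, with none of the motifs, overlap annotated exons and are not shown. None of these 4 windows held the AP-1 motif or the E-box. Among 32851 promoter windows of that length, 55.6% held the NFAT core, 23.25% the PU.1 core, 6.75% the AP-1 motif and 6.02% the E-box. These matches describe letters only and say nothing of binding.

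Cathepsin K and the proton pump subunit were among the more abundant messages of these cells. Ctsk ranked 129 by mean FPKM among the 10858 tested genes, Atp6v0d2 282 and Acp5 888, ahead of most genes. Mmp9 ranked 5252, Tnfrsf11a 5990, Itgb3 6634, Nfatc1 7515 and Dcstamp 10687, near the bottom. FPKM are scaled by gene length, so these ranks compare genes per length.

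**Figure D1:**
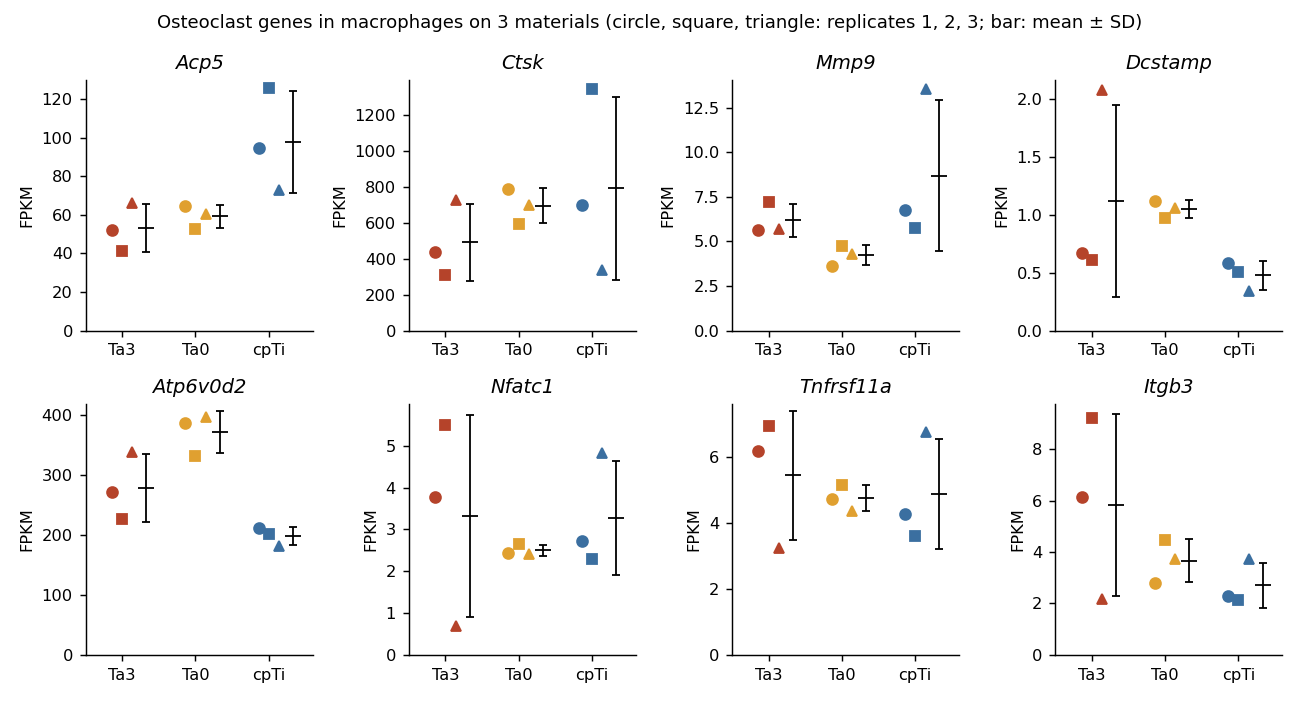
FPKM (linear axis from 0, a scale per gene) of the 8 tested osteoclast genes in each library on Ta3, Ta0 and cpTi; points are libraries, their shape gives the replicate, and the bar is the mean ± SD of 3. On the deposited library scale, Acp5 on both glasses (41.4 to 66.1 FPKM) lies below cpTi (72.9 to 126 FPKM). On that scale Atp6v0d2 on both glasses (226 to 397 FPKM) lies above cpTi (182 to 211 FPKM).

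Tnfrsf11a (chromosome 1, 105780718 to 105847981, plus strand, build GRCm38) encodes RANK, the receptor for RANK ligand. Its level was 6.16, 6.92 and 3.23 FPKM in the Ta3 libraries, 4.73, 5.14 and 4.37 FPKM in the Ta0 libraries and 4.25, 3.61 and 6.74 FPKM in the cpTi libraries. The groups overlapped, and the highest and lowest libraries both came from Ta3. Means were 5.43 ± 1.95 FPKM on Ta3, 4.75 ± 0.388 FPKM on Ta0 and 4.87 ± 1.66 FPKM on cpTi (SD, n = 3 each), and the log2 fold change of both glasses over cpTi was 0.06 ± 0.24 (SE), with a 95% interval of -0.48 to 0.60. In limma's moderated test with Benjamini-Hochberg adjustment over all 10858 genes the adjusted p was 0.955.

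Oscar (chromosome 7, 3609813 to 3616157, minus strand) encodes an immunoglobulin-like collagen receptor that signals through the Fc receptor gamma chain. It had 0 reads in all 9 libraries. A count of 3 reads, the limit that 0 allows, would be between 0.0741 and 0.179 FPKM here, so Oscar was not detectable at this depth on any material. These limits cover counting error only.

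Nfatc1 (chromosome 18, 80606205 to 80713071, minus strand) encodes the transcription factor that RANK signalling induces. Its level was 3.77, 5.49 and 0.702 FPKM on Ta3, 2.45, 2.65 and 2.41 FPKM on Ta0 and 2.72, 2.28 and 4.83 FPKM on cpTi. The Ta3 libraries held both the highest and the lowest value, while the Ta0 libraries lay within a narrow band inside the range of both other groups. Means were 3.32 ± 2.42 FPKM on Ta3, 2.50 ± 0.127 FPKM on Ta0 and 3.28 ± 1.36 FPKM on cpTi, and the log2 fold change of both glasses over cpTi was -0.19 ± 0.39 (adjusted p = 0.905). It took the other sign, 0.09, without Ta3 replicate 3 (adjusted p = 0.945), and 0.05 without cpTi replicate 3 (adjusted p = 0.996). An antisense gene, AC123818.1, overlaps Nfatc1 in GENCODE M21, and the strand setting of the counting is not given in the sources used here, so its reads cannot be told apart from those of Nfatc1.

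Dcstamp (chromosome 15, 39745930 to 39760938, plus strand) encodes the membrane protein that osteoclast precursors need for fusion. Between 20 and 54 reads per library gave 0.670, 0.609 and 2.07 FPKM on Ta3, 1.12, 0.968 and 1.06 FPKM on Ta0 and 0.586, 0.501 and 0.343 FPKM on cpTi. In FPKM all 6 glass libraries lay above all 3 cpTi libraries, by little in Ta3 replicates 1 and 2 (33 and 35 reads) and most in Ta3 replicate 3 (54 reads). The Ta0 libraries had 27, 43 and 46 reads and the cpTi libraries 28, 22 and 20. Ta0 replicate 1 thus had fewer reads than cpTi replicate 1, at a deposited scale of 9078170 against 17925752 reads. Dcstamp passed the filter through 3 glass libraries, 2 of them the libraries that stood apart, so its place among the tested genes is tied to its higher level there, and it was left out of the fits without those libraries. The log2 fold change on the log2(FPKM + 1) scale, which understates the change of so low a gene, was 0.47 ± 0.21 for both glasses over cpTi (adjusted p = 0.799).

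Ocstamp (chromosome 2, 165393760 to 165400405, minus strand), the partner of Dcstamp in osteoclast fusion, had 3 reads in all, 1 in Ta3 replicate 2 and 2 in Ta0 replicate 2. At a limit of 3 reads per library, 0.0374 to 0.0904 FPKM, it was not detectable in any group, and no fold was taken.

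Itgb3 (chromosome 11, 104608000 to 104670476, plus strand) encodes the beta-3 subunit of the vitronectin receptor, by which osteoclasts attach to bone. Its level was 6.14, 9.22 and 2.17 FPKM on Ta3, 2.80, 4.45 and 3.73 FPKM on Ta0 and 2.29, 2.14 and 3.71 FPKM on cpTi. Ta3 replicates 1 and 2 exceeded every library of the other materials, while Ta3 replicate 3 was near the lowest of all 9. The log2 fold change of both glasses over cpTi was 0.54 ± 0.34 (95% interval -0.24 to 1.33, adjusted p = 0.844). For Ta3 over cpTi it was 0.75 ± 0.40 (adjusted p = 0.789), with 1.23 without Ta3 replicate 3 (adjusted p = 0.14) and 0.38 without Ta3 replicate 2 (adjusted p = 0.621). For both glasses over cpTi it was 0.36 without Ta3 replicate 2.

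Atp6v0d2 (chromosome 4, 19876841 to 19922605, minus strand) encodes the d2 subunit of the vacuolar proton pump, the form found in osteoclasts and also in macrophages. Its level was 271, 226 and 338 FPKM on Ta3, 387, 331 and 397 FPKM on Ta0 and 211, 202 and 182 FPKM on cpTi. On the deposited scale every glass library lay above every cpTi library. The Ta3 and Ta0 libraries overlapped narrowly, with Ta3 replicate 3 just above Ta0 replicate 2. The separation from cpTi depends on that scale. Ta3 replicate 3 and Ta0 replicate 1 had 8986 and 9531 reads, against 10275, 9045 and 10814 on cpTi. Their FPKM were scaled to 9775248 and 9078170 reads, where 15517877 and 15527155 were rebuilt. On cpTi the scales were 16493509 to 21911078. Means were 279 ± 56.5 FPKM on Ta3, 371 ± 35.4 FPKM on Ta0 and 198 ± 15.0 FPKM on cpTi. The log2 fold change was 0.47 ± 0.27 for Ta3 over cpTi (unadjusted p = 0.120, adjusted p = 0.827) and 0.90 ± 0.27 for Ta0 over cpTi (unadjusted p = 0.0100, adjusted p = 0.476), neither past the adjusted threshold of 0.05. For both glasses together it was 0.69 ± 0.24 with a 95% interval of 0.15 to 1.23 (adjusted p = 0.521).

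Acp5 (chromosome 9, 22126727 to 22135711, minus strand) encodes tartrate-resistant acid phosphatase, the classical histochemical marker of osteoclasts, which macrophages also make. Its level was 52.3, 41.4 and 66.1 FPKM on Ta3, 64.6, 52.7 and 60.5 FPKM on Ta0 and 94.5, 126 and 72.9 FPKM on cpTi. Every glass library lay below every cpTi library, and the Ta3 and Ta0 libraries were interleaved. Means were 53.3 ± 12.3 FPKM on Ta3, 59.3 ± 6.04 FPKM on Ta0 and 97.7 ± 26.6 FPKM on cpTi. The log2 fold change was -0.85 ± 0.27 for Ta3 over cpTi (unadjusted p = 0.0129, adjusted p = 0.443) and -0.68 ± 0.27 for Ta0 over cpTi (unadjusted p = 0.0352, adjusted p = 0.750). For both glasses together it was -0.77 ± 0.24 with a 95% interval of -1.30 to -0.23 (adjusted p = 0.377). The one gene that overlaps Acp5, 6530413G14Rik on the other strand, had at most 2 reads in any library.

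Ctsk (chromosome 3, 95499256 to 95509362, plus strand) encodes cathepsin K, the protease that degrades bone collagen. Its level was 436, 309.7 and 728 FPKM on Ta3, 789, 595 and 699 FPKM on Ta0 and 700.1, 1343 and 336 FPKM on cpTi. The cpTi libraries spanned the highest value and nearly the lowest, and the groups overlapped. The spread within cpTi, 793 ± 510 FPKM, against 491 ± 215 FPKM on Ta3 and 694 ± 97.2 FPKM on Ta0, left a 95% interval of -1.37 to 0.82 for the log2 fold change of both glasses over cpTi, the widest of the 8 genes (-0.27 ± 0.48, adjusted p = 0.891). It turned to 0.22 without cpTi replicate 2 (adjusted p = 0.862) and was -0.78 without cpTi replicate 3 (adjusted p = 0.996).

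Mmp9 (chromosome 2, 164940780 to 164955850, plus strand) encodes matrix metalloproteinase 9, a gelatinase of osteoclasts and macrophages. Its level was 5.63, 7.23 and 5.69 FPKM on Ta3, 3.64, 4.76 and 4.32 FPKM on Ta0 and 6.78, 5.74 and 13.6 FPKM on cpTi. The Ta0 libraries lay below all others, and Ta3 overlapped cpTi. The log2 fold change was -0.36 ± 0.28 for Ta3 over cpTi (adjusted p = 0.921), -0.81 ± 0.28 for Ta0 over cpTi (adjusted p = 0.666) and 0.45 ± 0.28 for Ta3 over Ta0 (adjusted p = 0.846). The high value of cpTi replicate 3 weighed on this: without it the log2 fold change was -0.02 for Ta3 over cpTi (adjusted p = 0.999) and -0.47 for Ta0 over cpTi (adjusted p = 1).

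**Figure D2:**
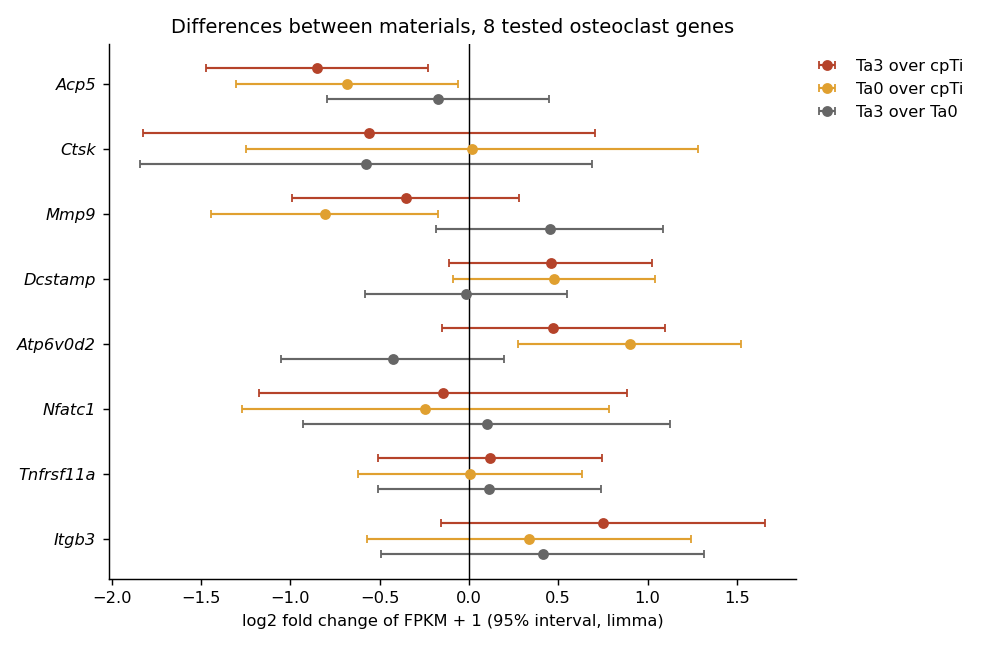
Log2 fold change on the log2(FPKM + 1) scale with its 95% interval for the 8 tested osteoclast genes, for Ta3 over cpTi, Ta0 over cpTi and Ta3 over Ta0; the line at 0 marks no difference. For Ta0 over cpTi the intervals of Acp5 (-1.30 to -0.06) and Atp6v0d2 (0.28 to 1.52) lie on opposite sides of 0, yet 0 of the 8 genes passed the adjusted threshold.

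Across the comparisons none of the 8 tested osteoclast genes passed an adjusted p of 0.05, nor did any with limma's voom on the rebuilt reads. On Ta3 against cpTi 0 of 8 passed, where 0.479% of all tested genes did, and 1 of 8 (Acp5) had an unadjusted p under 0.05, where 6.99% of all tested genes did. On Ta0 against cpTi 0 of 8 passed, where 0.424% did, and 3 of 8 (Acp5, Atp6v0d2 and Mmp9) had an unadjusted p under 0.05, where 5.5% did. For both glasses together the counts were 0 of 8 against 0.728%, and the same 3 genes at the unadjusted level, against 6.53%. Because these comparisons share the cpTi libraries, they are not separate tests of one another.

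Ta3 and Ta0 were compared directly for what the tantalum-containing glass differed in. None of the 8 genes passed the threshold, as was so for all 10858 genes (0%, with 4.25% at an unadjusted p under 0.05). The log2 fold changes of Ta3 over Ta0 ran from -0.58 for Ctsk to 0.45 for Mmp9, and their adjusted p from 0.846 to 0.983. The 95% intervals reached between 0.57 and 1.26 to either side of the estimate, so differences of that size between the glasses could not be told from 0. For Acp5 the difference was -0.17 (95% interval -0.79 to 0.45) and for Atp6v0d2 -0.43 (-1.05 to 0.20).

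Counted by libraries that do not overlap, 3 of 8 genes separated Ta3 from cpTi (Dcstamp and Atp6v0d2 above, Acp5 below), where 11.7% of all tested genes did. On Ta0 against cpTi 4 of 8 did (Dcstamp and Atp6v0d2 above, Acp5 and Mmp9 below), where 16.5% of all tested genes did. For all 6 glass libraries against cpTi 3 of 8 did, where 5.16% did, and for Ta3 against Ta0 only Mmp9, where 8.97% did. Dcstamp enters these counts through the filter described above. The counts were taken on the deposited library scale, on which the separation of Atp6v0d2 and Dcstamp depends. The median log2 fold change of the 8 genes for both glasses over cpTi was -0.07, beside 0.01 over all tested genes, with 4 above 0 and 4 below.

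Without Ta3 replicate 3 and Ta0 replicate 1 together, the log2 fold change of both glasses over cpTi was -0.88 for Acp5 (adjusted p = 0.345), 0.60 for Atp6v0d2 (adjusted p = 0.669), 0.85 for Itgb3 (adjusted p = 0.231) and -0.52 for Mmp9 (adjusted p = 0.910). Acp5 and Mmp9 kept the lower sign and Atp6v0d2 the higher sign on each glass against cpTi under all 17 alternatives. Where the FPKM of each library were rescaled to a common total, the median of all tested genes itself moved to -0.31 for both glasses over cpTi and to -0.53 for Ta0 over cpTi. Atp6v0d2 over cpTi shrank there to 0.30 for both glasses (limma adjusted p = 0.876), 0.285 for Ta0 (adjusted p = 0.699) and 0.32 for Ta3. Acp5 was -1.15 for both glasses over cpTi (adjusted p = 0.844). Under that scaling Itgb3 for Ta0 over cpTi turned to -0.13, still above that median, Atp6v0d2 for Ta3 over Ta0 turned to 0.03 and Acp5 for Ta3 over Ta0 to 0.29, these beside a median of 0.35.

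Libraries of one material also differed along gene length, and several of the osteoclast genes differed with it. For each library, the deviations of all tested genes from their overall means were regressed on log2 gene length, and the slope was 0.02, 0.27 and -0.21 in the Ta3 libraries, -0.23, 0.03 and -0.08 in the Ta0 libraries and 0.06, -0.06 and 0.21 in the cpTi libraries. A negative slope means that long genes read low. The slopes of the materials overlapped, with means of 0.02 ± 0.24 on Ta3, -0.09 ± 0.13 on Ta0 and 0.07 ± 0.13 on cpTi (exact 2-sided permutation p = 0.9 for Ta3 and 0.2 for Ta0 against cpTi, a design that cannot go below 0.1).

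The long genes Nfatc1 (7433 bases), Tnfrsf11a (5985 bases) and Itgb3 (5901 bases) were highest in Ta3 replicate 2, which had the steepest positive slope. Nfatc1 and Tnfrsf11a were lowest in Ta3 replicate 3, which had the lowest slope of that material, and Itgb3 had 2.17 FPKM there. Ta0 replicate 1 had the lowest slope of all libraries (-0.23) but not the lowest level of these genes. Nfatc1, Tnfrsf11a and Itgb3 had 2.45, 4.73 and 2.80 FPKM there. In cpTi replicate 2 (slope -0.06) they had 2.28, 3.61 and 2.14 FPKM. Ctsk, of 1512 bases, ran the other way and was lower in Ta3 replicate 2 than in any other library. It was highest in cpTi replicate 2 (1343 FPKM), above Ta0 replicate 1 (789 FPKM). The part of gene length in these levels was not tested beyond the fit that follows.

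**Figure D3:**
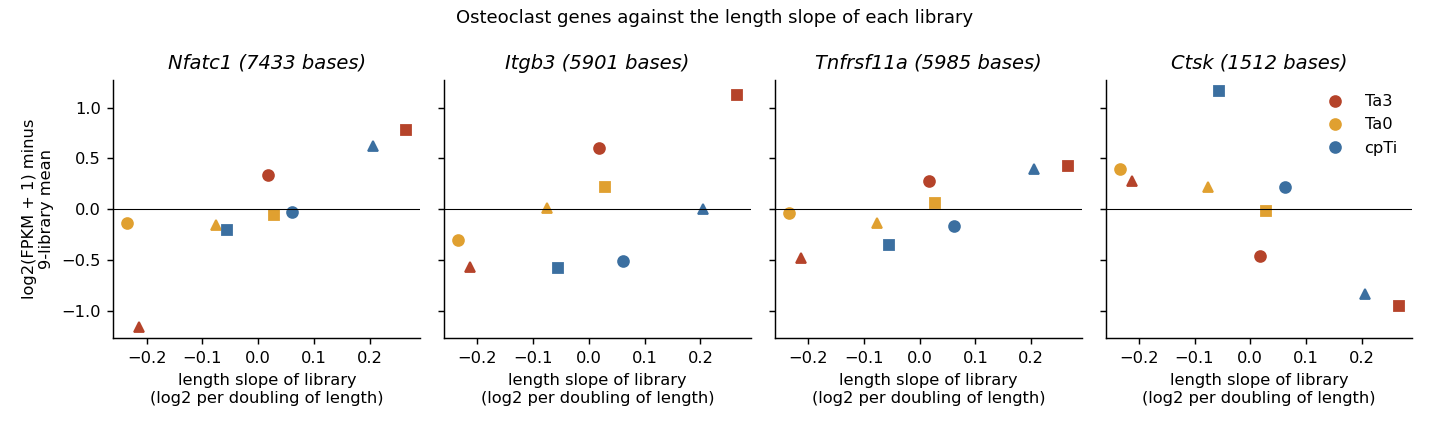
Level of Nfatc1, Itgb3, Tnfrsf11a and Ctsk (log2(FPKM + 1) minus its 9-library mean) against the library's slope on log2 gene length; points are libraries, coloured by material and shaped by replicate. Nfatc1, Tnfrsf11a and Itgb3 are high in Ta3 replicate 2 (slope 0.27) and low in Ta3 replicate 3 (slope -0.21), and Ctsk is lowest in Ta3 replicate 2. Ta0 replicate 1 has the lowest slope (-0.23) but not the lowest level of Nfatc1, Tnfrsf11a or Itgb3.

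With the length slope as a covariate in the same model, 3 of the 8 genes passed for both glasses over cpTi, where 4.38% of all tested genes did. Acp5 fell, with a log2 fold change of -0.94 ± 0.11 (limma adjusted p = 0.00135). Itgb3 rose by 0.86 ± 0.14 (adjusted p = 0.0079), and Atp6v0d2 rose by 0.58 ± 0.11 (adjusted p = 0.0147). On Ta3 against cpTi 2 of 8 passed, where 5.37% did, namely Acp5 (-0.93 ± 0.12, adjusted p = 0.00289) and Itgb3 (0.89 ± 0.16, adjusted p = 0.0112), and Atp6v0d2 did not (0.43 ± 0.12, adjusted p = 0.0693). On Ta0 against cpTi 3 of 8 passed, where 2.27% did, namely Acp5 (-0.95 ± 0.13, adjusted p = 0.00601), Atp6v0d2 (0.73 ± 0.13, adjusted p = 0.018) and Itgb3 (0.83 ± 0.17, adjusted p = 0.0371). For Ta3 over Ta0 none of the 8 passed in that fit, where 0% of all tested genes did. The slope is estimated from the same libraries and is no label of the study, and none of the other alternatives called any of the 8 genes.

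The opposite order of Atp6v0d2 and Acp5 showed most clearly as a ratio within a library, where library scale cancels. This pair was chosen after the values were seen, and is given as a description with no test. Of the 28 pairs of tested members, 5 (17.9%) had ratios that did not overlap between the glasses and cpTi. That share was not taken over pairs of all tested genes, so the count is no result about the members. Pairs with Dcstamp also carry the limit that it passed the filter through glass libraries. The gap was widest for Acp5 with Dcstamp (1.044 in log2) and next for Acp5 with Atp6v0d2 (1.039). Atp6v0d2 over Acp5, in FPKM per FPKM, was 5.19, 5.46 and 5.12 on Ta3, 5.98, 6.27 and 6.56 on Ta0 and 2.23, 1.61 and 2.49 on cpTi. The 3 groups did not overlap, with Ta0 highest and cpTi lowest, and the ratio on both glasses was 2.73 times that on cpTi. It was 2.78 times without Ta3 replicate 3 and Ta0 replicate 1, and between 2.44 and 3.00 times with any single library left out. Atp6v0d2 has 2716 bases and Acp5 2030 bases, and the part of gene length in this ratio was not tested.

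A ratio over Acp5 that was higher in all glass libraries was common, since Acp5 itself was lower there: 29.7% of the other tested genes had one, and 50 of 10857 had a wider gap between the groups than Atp6v0d2. Atp6v0d2 over its ubiquitous counterpart Atp6v0d1, the d1 subunit of the same pump, averaged 1.36 ± 0.256 on Ta3, 1.92 ± 0.115 on Ta0 and 1.24 ± 0.148 on cpTi, so that Ta0 lay apart and Ta3 overlapped cpTi. Ctsk over Acp5 averaged 8.94 ± 1.85 on Ta3, 11.7 ± 0.479 on Ta0 and 7.57 ± 3.03 on cpTi, and all Ta0 libraries lay above all others.

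**Figure D4:**
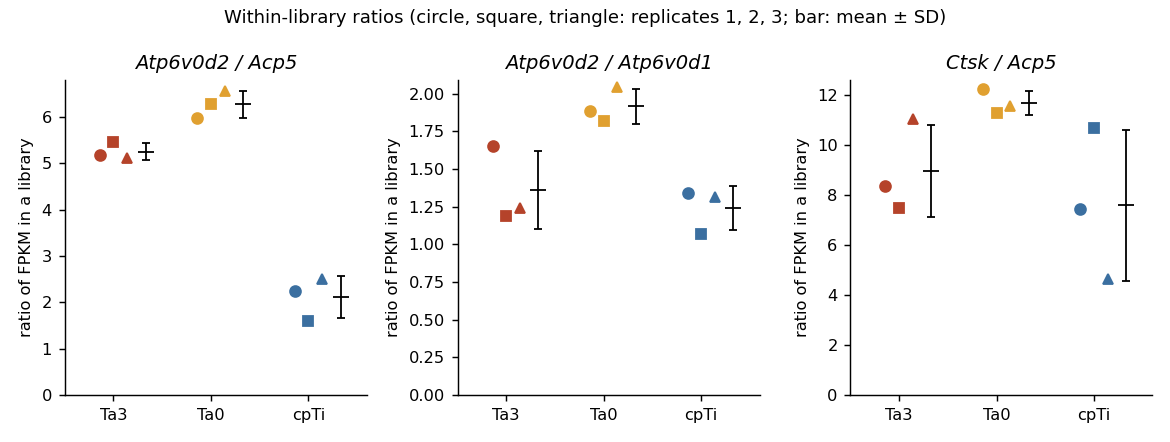
Within-library ratios of Atp6v0d2 to Acp5, Atp6v0d2 to Atp6v0d1 and Ctsk to Acp5 (FPKM per FPKM) by material; points are libraries and the bar is the mean ± SD of 3. Atp6v0d2 over Acp5 lies between 5.12 and 6.56 on the glasses and between 1.61 and 2.49 on cpTi.

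The profiles of the members over the 9 libraries were set beside those of all other tested protein-coding genes, by the root mean square difference of centred log2(FPKM + 1) values. The closest to Acp5 were Slc31a2 (0.08), Bst1 (0.09) and Cav1 (0.10). Atp6v0d2 was closest to Rgs2 (0.12), Serpinb1a (0.12) and Smagp (0.16), Itgb3 to Slc29a3 (0.13), Bhlhe40 (0.16) and Wfs1 (0.18), and Mmp9 to Il21r (0.16), Wdfy2 (0.16) and Nfkb2 (0.18). Ctsk was closest to Arl6 (0.12), Tmem70 (0.14) and Pno1 (0.19), and Tnfrsf11a to Raph1 (0.05), Helz (0.06) and Vwa8 (0.07). Among the members themselves the closest pairs were Dcstamp with Atp6v0d2 (0.24) and Nfatc1 with Tnfrsf11a (0.28), both wider than these. The profiles share libraries, their scale and their length slope. Adding 1 to FPKM narrows the range of low genes, such as Raph1 (0.589 to 2.23 FPKM) and Helz (0.231 to 1.17 FPKM). The differences also depend on each member's own spread, with an SD in log2 of 0.32 for Tnfrsf11a and 0.66 for Ctsk.

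The wider osteoclast pathway was read from 8 lists of 122 genes, of which 112 were tested. None of the 112 passed the threshold in any comparison in the limma fit, and none did with limma's voom on the rebuilt reads. Without Ta3 replicate 3, Relb alone of the 112 passed, lower on Ta0 and on both glasses than on cpTi. Of the 10734 genes tested in that fit, 83 passed for Ta0 over cpTi and 101 for both glasses over cpTi. At an unadjusted p under 0.05 there were 12 for Ta3 over cpTi, 12 for Ta0 over cpTi, 1 for Ta3 over Ta0 and 16 for both glasses over cpTi, which is 10.7%, 10.7%, 0.893% and 14.3% of the 112, beside 6.99%, 5.5%, 4.25% and 6.53% of all tested genes. All 6 glass libraries lay apart from all cpTi libraries for 12 of the 112 (10.7%, where 5.16% of all tested genes did), with Tec, Atp6v0c, Ctsd, Timp2 and Ckb above and Relb, Ikbkg, Lcp2, Tnfaip3, Snx10, Ctsc and Src below. With the length slope as a covariate 6 rose (Trem2, Jun, Atp6v0a1, Itgb5, Ckb and Tec) and 7 fell (Csf1r, Mmp14, Timp1, Lcp2, Tnfaip3, Relb and Src) for both glasses over cpTi, where 4.38% of all tested genes passed.

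RANK ligand itself (Tnfsf11) had between 0 and 14 reads per library and averaged 0.143 ± 0.0349 FPKM on Ta3, 0.0724 ± 0.0688 FPKM on Ta0 and 0.257 ± 0.0804 FPKM on cpTi, and it was not tested. The decoy receptor osteoprotegerin (Tnfrsf11b) averaged 0.234 ± 0.237 FPKM on Ta3, 0.0764 ± 0.0330 FPKM on Ta0 and 0.0840 ± 0.0738 FPKM on cpTi. Of the 19 tested genes of RANK ligand and its signalling, 16 had a log2 fold change below 0 for both glasses over cpTi, with a median of -0.25 beside 0.01 over all tested genes. The counts and medians of this list and those below come from the fit without the length slope. The part of gene length in them was not tested. Traf6, the adaptor of RANK, averaged 4.23 ± 1.01 FPKM on Ta3, 3.71 ± 1.07 FPKM on Ta0 and 5.10 ± 1.11 FPKM on cpTi (-0.31 ± 0.21, adjusted p = 0.844). Relb, an NF-kB subunit of the alternative pathway, came nearest to the threshold of any of the 112, at 6.28 ± 1.03 FPKM on Ta3, 4.70 ± 0.665 FPKM on Ta0 and 9.83 ± 0.922 FPKM on cpTi (-0.75 ± 0.14, adjusted p = 0.0693). The AP-1 genes Jun and Junb, the highest of the list, averaged 56.5 ± 22.4 and 51.0 ± 10.9 FPKM on Ta3, 36.3 ± 5.28 and 47.1 ± 6.18 FPKM on Ta0 and 36.2 ± 10.3 and 58.2 ± 5.56 FPKM on cpTi.

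The costimulatory list (17 tested) had a median of -0.06 for both glasses over cpTi. Its adaptor Tyrobp (DAP12) averaged 4330 ± 4410 FPKM on Ta3, 4043 ± 1519 FPKM on Ta0 and 2019 ± 724 FPKM on cpTi (adjusted p = 0.844), and Fcer1g, through which OSCAR signals, averaged 1160 ± 564 FPKM on Ta3, 1712 ± 1099 FPKM on Ta0 and 1078 ± 442 FPKM on cpTi. On the M-CSF axis (7 tested, median -0.22) the receptor gene Csf1r averaged 82.4 ± 31.1 FPKM on Ta3, 61.1 ± 8.88 FPKM on Ta0 and 117 ± 25.0 FPKM on cpTi (-0.73 ± 0.27, adjusted p = 0.605). Spi1, the gene for PU.1, averaged 165 ± 33.2 FPKM on Ta3, 158 ± 15.1 FPKM on Ta0 and 143 ± 17.9 FPKM on cpTi.

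Repressors of osteoclast differentiation (11 tested) had a median of -0.03. Irf8, which holds NFATc1 down in precursors, averaged 24.2 ± 3.99 FPKM on Ta3, 22.4 ± 2.36 FPKM on Ta0 and 23.2 ± 1.96 FPKM on cpTi, and its log2 fold change was 0.00 (adjusted p = 0.999). Id2, the highest of the list, averaged 279 ± 153 FPKM on Ta3, 378 ± 105 FPKM on Ta0 and 298 ± 112 FPKM on cpTi, and the phosphatase gene Ptpn6 57.5 ± 7.61 FPKM on Ta3, 56.7 ± 5.45 FPKM on Ta0 and 63.5 ± 4.35 FPKM on cpTi.

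Of the 21 tested genes of acidification, 16 had a log2 fold change above 0 for both glasses over cpTi, with a median of 0.17. The pump subunits with the highest level varied widely between libraries. Atp6v1g1 averaged 983 ± 813 FPKM on Ta3, 1344 ± 780.0 FPKM on Ta0 and 610.2 ± 303 FPKM on cpTi, and Atp6v1f 583 ± 518 FPKM on Ta3, 643 ± 364 FPKM on Ta0 and 291 ± 133 FPKM on cpTi (adjusted p = 0.844 for each, both glasses over cpTi). Tcirg1, the a3 subunit that osteoclasts need at the ruffled border, averaged 131 ± 44.8 FPKM on Ta3, 105 ± 16.4 FPKM on Ta0 and 98.0 ± 18.8 FPKM on cpTi (0.23, adjusted p = 0.848). Clcn7, the chloride antiporter of that border, averaged 44.3 ± 17.9 FPKM on Ta3, 30.8 ± 4.28 FPKM on Ta0 and 42.1 ± 9.09 FPKM on cpTi.

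Cathepsins, matrix proteases and their inhibitors (13 tested) had a median of 0.21 for both glasses over cpTi, with -0.04 for Ta3 and 0.34 for Ta0. Ctss, a lysosomal protease of antigen processing, averaged 9729.5 ± 4981 FPKM on Ta3, 13157 ± 3451 FPKM on Ta0 and 9723 ± 3801 FPKM on cpTi. Ctsd, a lysosomal aspartic protease, averaged 5431 ± 1001 FPKM on Ta3, 5091 ± 356 FPKM on Ta0 and 3913 ± 201 FPKM on cpTi (0.42 ± 0.46, adjusted p = 0.848). For fusion and integrin adhesion (22 tested) the median was 0.00. Itgav, the alpha partner of Itgb3 in the vitronectin receptor, averaged 4.59 ± 1.87 FPKM on Ta3, 3.58 ± 0.0797 FPKM on Ta0 and 4.30 ± 1.63 FPKM on cpTi, without the order seen for Itgb3. Src, the kinase downstream of that integrin, averaged 2.86 ± 0.868 FPKM on Ta3, 2.04 ± 0.380 FPKM on Ta0 and 4.42 ± 0.512 FPKM on cpTi (-0.67 ± 0.17, adjusted p = 0.197). Spp1 (osteopontin, a ligand of the vitronectin receptor) averaged 6193 ± 3258 FPKM on Ta3, 9963 ± 2451 FPKM on Ta0 and 4960.1 ± 1067 FPKM on cpTi, and the tetraspanin gene Cd9 435 ± 204 FPKM on Ta3, 488 ± 131 FPKM on Ta0 and 268 ± 69.4 FPKM on cpTi (adjusted p = 0.844 for each).

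Of the remaining osteoclast-associated genes 2 of 5 were tested. Ckb, the brain-type creatine kinase, averaged 31.7 ± 7.00 FPKM on Ta3, 27.9 ± 4.11 FPKM on Ta0 and 16.9 ± 0.948 FPKM on cpTi (0.76 ± 0.18, adjusted p = 0.158), and Sema4d, which osteoclasts use to restrain osteoblasts, averaged 29.6 ± 14.5 FPKM on Ta3, 20.2 ± 2.98 FPKM on Ta0 and 23.2 ± 8.29 FPKM on cpTi. The calcitonin receptor gene Calcr, which marks mature osteoclasts, had 0 reads in all 9 libraries, where 3 reads would be 0.0350 to 0.0845 FPKM.

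**Figure D5:**
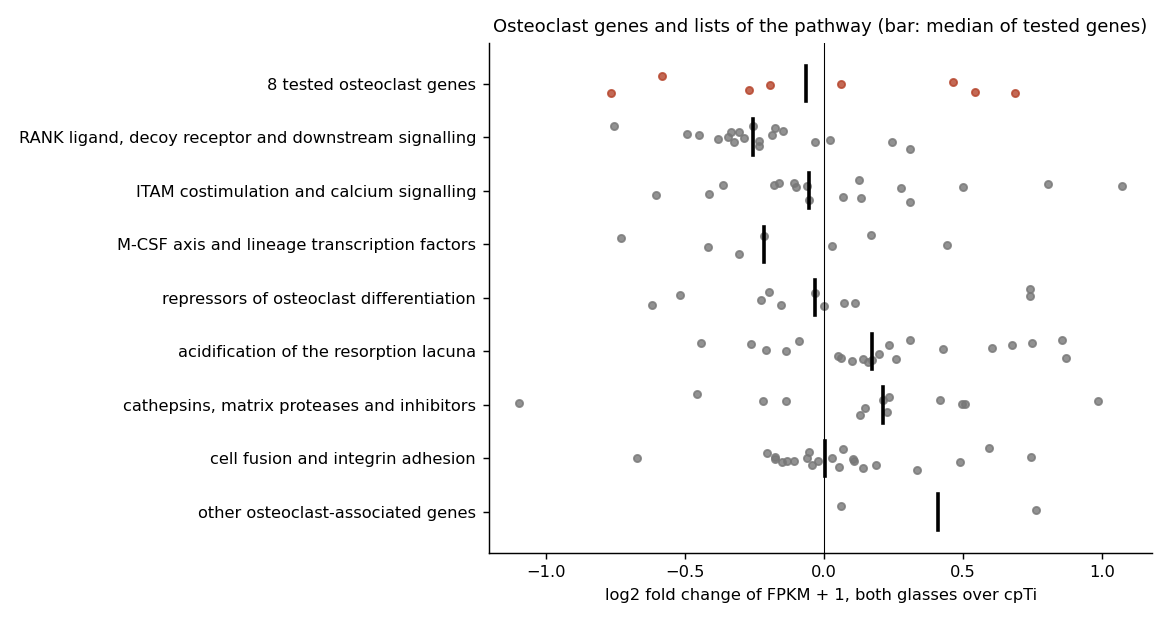
Log2 fold change of both glasses over cpTi for each tested gene of the osteoclast genes and the pathway lists; points are genes, the bar is the list's median and the line at 0 marks no difference. The medians run from -0.25 for RANK ligand and its signalling to 0.41 for the list with 2 tested genes, beside 0.01 over all tested genes.

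Markers of other cells that the culture could hold were read beside these genes. Of 11 osteoblast and stromal markers 6 were tested (Col1a1, Col1a2, Col3a1, Sparc, Pdgfra and Dcn). Bglap had 0 FPKM and Runx2, Sp7, Alpl and Lum stayed under 1 FPKM in every library. Their summed level was 48.7 to 64.9 FPKM on Ta3, 39.8 to 44.6 FPKM on Ta0 and 37.6 to 71.0 FPKM on cpTi. Of 8 neutrophil markers, which bear on Mmp9, 2 were tested, Ly6g was at 0 and Elane, Mpo and Ltf under 1 FPKM. S100a8, S100a9, Camp and Ngp each reached at least 1 FPKM in some library. The sum of the 8 was 10.4 to 383.5 FPKM on Ta3, 92.1 to 388 FPKM on Ta0 and 62.0 to 269.6 FPKM on cpTi. Of 7 megakaryocyte and platelet markers, which bear on Itgb3, 2 were tested, Gp1bb was at 0 and Itga2b, Gp9, Gp1ba and Gp6 under 1 FPKM, with sums of 156.3 to 2550.0 FPKM on Ta3, 537.8 to 2231 FPKM on Ta0 and 675.6 to 1759 FPKM on cpTi. Nearly all of that sum was Pf4, and Ppbp, a platelet chemokine gene, was lower in every glass library than in any cpTi library, at 0.245 ± 0.353 FPKM on Ta3, 0.477 ± 0.424 FPKM on Ta0 and 2.13 ± 0.821 FPKM on cpTi (-1.20 ± 0.26, adjusted p = 0.127 for both glasses over cpTi). Ppbp passed the filter through its cpTi libraries alone, so its separation from the glasses is tied to its higher level there. The part of neutrophils, megakaryocytes and platelets in the levels of Mmp9 and Itgb3 was not tested. Of the macrophage markers, Adgre1 (F4/80) averaged 87.9 ± 8.14 FPKM on Ta3, 89.1 ± 9.98 FPKM on Ta0 and 157 ± 7.67 FPKM on cpTi (adjusted p = 0.134 for both glasses over cpTi), and like Acp5 it was lower in every glass library than in any cpTi library.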

How the data were processed

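PolyA RNA of macrophages on Ta3, Ta0 and cpTi was sequenced in 3 libraries per material. The authors deposited one table of FPKM for 54532 genes and 9 libraries, with gene positions, and 0 of its columns belonged to no sample. Per the submitters' processing notes, the build was GRCm38 (mm10) and the tools were fastp, CASAVA 1.8, DESeq2 1.20.0, featureCounts 1.5.0-p3 and HISAT2 2.0.5, with no role or strand setting given. Column stems were matched to titanium, to the glass with tantalum and to the glass without it.

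Multiplying the authors' FPKM by gene length gave, in each library, multiples of one step, from which whole reads were rebuilt (100% whole within 0.05 reads). The filter kept genes at 1 FPKM or more in 3 or more of the 9 libraries. With limma 3.58.1 (R 4.3.3), log2(FPKM + 1) was modelled by group over all 9 libraries, with a mean-variance trend and 2-sided moderated tests, and p-values were adjusted by Benjamini-Hochberg over the 10858 genes of each comparison, with a threshold of 0.05. The comparison of both glasses took the mean of the Ta3 and Ta0 means against cpTi in that model. The fit was checked on simulated data before use. Library measures were compared by exact 2-sided permutation tests.

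The 10 members are all named. From each pathway list, genes past the threshold, the 2 with the highest mean FPKM and a fixed set (Tnfsf11, Tnfrsf11b, Traf6, Csf1r, Irf8, Tcirg1, Clcn7, Itgav, Src, Tyrobp and Calcr, with 1 further gene not reported here) are named, and for each member with a mean of at least 5 FPKM in a group the 3 most alike genes. Relb, Ckb, Adgre1 and Ppbp, and genes whose groups did not overlap or that passed with the length slope, were named once their values were known. The members and lists were chosen with earlier results of these data known. Alternatives were a pseudocount of 0.1, no filter, each library left out, Ta0 replicate 1 and Ta3 replicate 3 left out together, a replicate block, a common FPKM total, voom on the rebuilt reads, the length slope as covariate and a fit on only the libraries compared. Promoter sequences are from RefSeq, in which 4 of the 10 members matched.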

Additional observations from a re-analysis of the deposited data

How the results depend on the processing

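Under the alternatives the number of osteoclast genes past the threshold stayed at 0 of those tested, except with the length slope as covariate, where it was 2 for Ta3 over cpTi, 3 for Ta0 over cpTi and 3 for both glasses over cpTi. The number over all genes was less stable. For Ta3 over cpTi 52 genes passed, against 29 with a pseudocount of 0.1, 21 with no filter, 18 without Ta0 replicate 1 and Ta3 replicate 3, 9 with a common FPKM total, 31 with voom, 583 with the length slope, 7 with only the libraries compared and 7 to 33 with single libraries left out. For Ta0 over cpTi 46 passed, against 27 with a pseudocount of 0.1, 28 with no filter, 20 without Ta0 replicate 1 and Ta3 replicate 3, 11 with a common FPKM total, 246 with the length slope and 7 to 83 with single libraries left out. For both glasses over cpTi 79 passed, against 46 with no filter, 13 with a common FPKM total, 476 with the length slope and 10 to 101 with single libraries left out. Between Ta3 and Ta0 it was 0 throughout, with 462 genes at an unadjusted p under 0.05. The cause of these shifts was not tested.

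The labels number the replicates alike in each material. Of 9 pairs of same-numbered libraries 4 had correlated deviations over 0.1 (range -0.82 to 0.85), and 3 of 9 libraries correlated best with their own number, so the numbers were not taken to pair libraries. With a replicate block 4 genes passed for Ta3 over cpTi, 4 for Ta0 over cpTi, 14 for both glasses over cpTi and 0 for Ta3 over Ta0, none of them an osteoclast gene. With 3 libraries per material the 95% intervals of single genes reached 0.57 to 1.26 on the log2 scale to either side, and Dcstamp, Ocstamp and Oscar were also limited by depth.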
